A study of Mus musculus with 12 samples.

Results

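The comparison described here set mouse embryonic stem (ES) cells that lacked Dppa2 and Dppa4 and had received SUMO-deficient forms of both proteins against knockout cells with no add-back. It used 6 of the 12 arrays of the study, 3 replicates of each group, and covered all 22180 genes with a probe set of their own. All 12 samples carried a MERVL::tdTomato reporter, a transgene in which a mouse endogenous retrovirus drives a red fluorescent protein. The mutant add-back cells were Dppa2/4 knockout cells transfected by lipofection with plasmids for mutant Dppa2 and Dppa4 fused to GFP, then sorted for GFP by flow cytometry. The other groups were parental reporter cells and knockout cells with wild-type Dppa2 and Dppa4 fused to GFP, also transfected and sorted. All were grown with serum replacement and LIF on gelatin.

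The labels do not state that the knockout or parental cells were transfected or sorted, so these steps and the add-back cannot be told apart in this comparison. The mutated residues, the plasmids' promoter, the time from transfection to sorting and the number of knockout clones are not stated in the sources used here. The genotype label names the reporter alone in every sample; the knockout and the add-back come from the sample titles and the study's design text. The samples are called biological replicates with no further detail, so the p-values measure the spread between these samples. The design sets wild-type against SUMO-deficient add-back, and the comparison with the knockout sets mutant add-back cells against cells with no add-back.

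Dppa2 and Dppa4 are small nuclear proteins of pluripotent cells that bind DNA together through SAP domains. They are known as activators of Dux, the transcription factor that switches on genes of the 2-cell embryo, among them Zscan4 genes and MERVL elements, in a rare 2-cell-like (2C-like) state of ES cells. They are also known to bind CpG-rich promoters of developmental genes and to keep some of them free of DNA methylation. SUMO is a small protein joined to lysines of other proteins, and sumoylation is often linked to transcriptional repression.

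RNA for both proteins was higher in the add-back cells. Dppa2 signals were 8.13, 8.69 and 8.63 on the log2 scale in the 3 knockout arrays and 11.12, 11.30 and 11.17 in the 3 mutant add-back arrays. Dppa4 signals were 7.92, 7.63 and 7.31 in the knockout and 10.55, 10.67 and 10.39 in the add-back. For both genes the groups were far apart and the add-back arrays lay close together. Dppa2 rose by 2.72 (SE 0.21; limma, adjusted p = 1.57e-05) and Dppa4 by 2.92 (SE 0.18; adjusted p = 1.37e-06). Parental Dppa2 signals were 9.35, 9.81 and 10.17 and parental Dppa4 signals 8.24, 8.58 and 8.55, so the add-back exceeded the parental cells by 1.42 (adjusted p = 0.00529) and 2.08 (adjusted p = 9.05e-05). The array cannot separate plasmid RNA from RNA of the endogenous genes, and where its probes lie relative to the deleted parts is not stated in the sources used here. The wild-type add-back was close in level, at 10.79, 11.34 and 11.11 for Dppa2 and 10.09, 10.58 and 10.49 for Dppa4, and the mutant minus wild-type difference was 0.12 and 0.15 (adjusted p = 1 for both). Dppa1, Dppa3 and Dppa5a, the other family members measured, did not pass the test.

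Across all genes the difference between the mutant add-back and the knockout was one-sided. At an adjusted p under 0.05, 248 of 22180 genes were higher (1.12%) and 34 were lower (0.153%). Of the 248, 142 rose by at least 2-fold, 66 by at least 4-fold, 30 by at least 16-fold and 12 by at least 64-fold. Of the 34, 5 fell by at least 2-fold and 0 by at least 4-fold. The median difference was 1.17 for the higher genes and -0.68 for the lower genes, beside -0.01 for all genes. All 248 and all 34 had arrays that did not overlap between the groups; 9.24% of all genes were so separated upward and 8.77% downward. After each array was centred on its median, which shifted the median of all genes to -0.09, 194 genes were higher and 72 lower, so the share of calls that were higher went from 87.9% to 72.9%. The counts also rested on the number of arrays: without knockout replicate 1, 2 or 3 they were 158, 158 and 159 higher and 15, 19 and 12 lower, and without mutant add-back replicate 1, 2 or 3 they were 192, 109 and 190 higher and 15, 10 and 17 lower. In bulk samples such as these, a change in the share of cells that express a gene and a change in RNA per cell cannot be told apart.

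**Figure D1:**
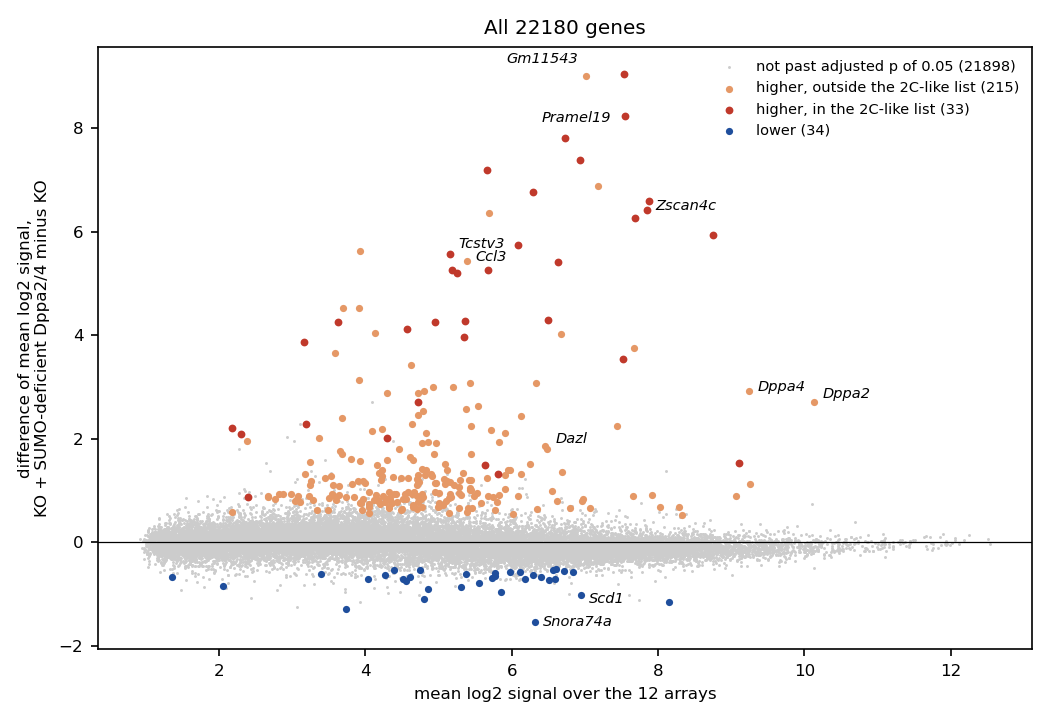
Each point is 1 of 22180 genes; the x axis is its mean log2 signal over the 12 arrays and the y axis the difference of mean log2 signal, mutant add-back minus knockout. Red points are the 33 higher genes of the 2C-like list, orange points the other 215 higher genes, blue points the 34 lower genes and grey points the genes that did not pass. The upper part of the plot, above 4, is held by 2C-like genes and others such as Gm11543 and Ccl3, while no lower gene lies below -1.53.

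The promoters of 3 Zscan4 genes are shown first, because this cluster held the largest rise and its members differ at a motif linked to DUX. Zscan4 genes encode zinc-finger proteins with a SCAN domain that mark the 2C-like state and are known for a role in telomere maintenance. The sequences are RefSeq promoters of GRCm38.p6, 5′ to 3′ along the gene's strand, each the 250 bases before the annotated start. They are Zscan4b at chr7:10905051-10905300 (minus strand), Zscan4c at chr7:11005495-11005744 (plus strand) and Zscan4d at chr7:11166149-11166398 (minus strand). Capitals mark TGATTNAAT, a core of the DUX site, on either strand.
Zscan4b: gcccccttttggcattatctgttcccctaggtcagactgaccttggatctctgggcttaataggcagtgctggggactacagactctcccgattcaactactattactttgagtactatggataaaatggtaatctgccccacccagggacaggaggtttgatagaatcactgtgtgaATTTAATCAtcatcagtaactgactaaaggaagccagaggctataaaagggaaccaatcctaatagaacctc
Zscan4c: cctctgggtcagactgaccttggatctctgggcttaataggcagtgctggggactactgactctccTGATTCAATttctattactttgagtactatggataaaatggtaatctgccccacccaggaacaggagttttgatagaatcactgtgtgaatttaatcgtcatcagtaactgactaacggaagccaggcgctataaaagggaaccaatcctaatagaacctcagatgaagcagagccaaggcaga
Zscan4d: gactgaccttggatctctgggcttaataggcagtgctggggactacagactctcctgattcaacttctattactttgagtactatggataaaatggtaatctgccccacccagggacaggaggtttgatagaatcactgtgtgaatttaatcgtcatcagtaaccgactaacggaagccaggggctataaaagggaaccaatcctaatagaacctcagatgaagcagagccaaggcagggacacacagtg

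In local alignments the Zscan4c and Zscan4d promoters were identical at 232 of 238 aligned bases and the Zscan4b and Zscan4c promoters at 215 of 227. The match stood in a different place in Zscan4b and Zscan4c. In Zscan4d a stretch at the place of the Zscan4c match differed from the motif by T9C, counted from 1 at the motif's 5′ end. Another stretch, atttaatcg, stood where Zscan4b has its match and also differed from the motif by 1 base. Zscan4d nonetheless rose, by 5.75 (SE 0.67; adjusted p = 0.000646). A match is a description of letters, not a shown binding site. In the windows that reach from 250 bases before to 50 after the start, the motif was found on either strand in 4 of 20 promoters of higher 2C-like genes (20.0%), those of Zscan4b, Zscan4c, Duxf3 and AF067061. It was found in 125 of 20611 promoters of all measured genes (0.607%), and in 7 of 240 promoters of all higher genes (2.92%), the further 3 being those of Pramel31, Gm2046 and Fcgbp. RefSeq promoters were matched for 19 of the 33 higher 2C-like genes and for 189 of all 248. The Zscan4b and Zscan4c promoters are near-copies, so the 4 promoters with the motif are not independent. Its rate over the whole measured 2C-like list was not computed.

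All 5 measured Zscan4 genes rose, by 4.29 to 9.04. Zscan4e had signals of 2.40, 1.87 and 1.90 in the knockout and 10.60, 11.06 and 11.63 in the add-back. This was the largest rise of all genes, 9.04 (SE 0.45; adjusted p = 5.39e-07), a 526-fold ratio on the array's scale. Zscan4c signals were 3.97, 4.53 and 4.57 against 10.12, 10.65 and 11.56, a rise of 6.42 (SE 0.47; adjusted p = 7.93e-06). In both genes every add-back array also lay above every parental array, which were 5.59, 7.06 and 6.74 for Zscan4e and 5.60, 6.48 and 6.43 for Zscan4c. Zscan4a was the least raised member, at 4.60, 4.60 and 4.55 in the knockout and 7.92, 8.79 and 9.91 in the add-back (4.29, SE 0.61; adjusted p = 0.00311). These genes are near-identical copies, so their probe sets can share RNA and the 5 values are not independent measurements.

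Other multi-copy families of the 2-cell embryo divided into those that rose and those that did not pass. The 5 Usp17l genes, deubiquitinases of the DUB family, all rose, by 2.71 to 7.40. Usp17le signals were 2.04, 3.09 and 2.61 in the knockout and 9.78, 9.97 and 10.19 in the add-back (7.40, SE 0.32; adjusted p = 1.69e-07), the smallest p of any gene. Tdpoz genes encode proteins with TRAF and POZ domains, and 3 of 6 rose: Tdpoz3 by 7.19, Tdpoz8 by 3.13 and Tdpoz4 by 2.10. Without mutant add-back replicate 2 the adjusted p of Tdpoz8 was 0.0928. Of the 2 Tcstv genes, Tcstv3 rose by 5.57 (SE 0.48; adjusted p = 3.98e-05), while Tcstv1 differed by 0.16 (adjusted p = 0.828). Eif4a3l1, a copy of the gene for the RNA helicase EIF4A3, had 4.28, 4.09 and 4.42 in the knockout and 9.81, 10.36 and 11.44 in the add-back, a rise of 6.27 (SE 0.50; adjusted p = 1.83e-05).

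Pramel genes form a large family of leucine-rich repeat proteins, several of them active in early embryos and germ cells. Of 31 measured, 4 rose (12.9%, beside 1.12% of all genes) and 0 fell. The 4 were Pramel19 by 8.24, Pramel31 by 5.62, Pramel17 by 3.66 and Pramel24 by 3.43. Pramel19 signals were 2.42, 2.92 and 2.95 against 10.50, 11.05 and 11.46, with no overlap. Pramel17 lost its call without mutant add-back replicate 2 (adjusted p = 0.0794). The family's median difference was 0.22, beside -0.01 for all genes. None of the 6 Tcl1, 6 Obox, 3 Trim43, 3 Khdc1, 4 Oog and 3 Eif1a-like genes passed the test, although members of each are known from the egg or early embryo. Tcl1, a coactivator of the kinase AKT, had 9.25, 9.17 and 9.06 in the knockout and 8.55, 8.61 and 8.84 in the add-back, a difference of -0.49 (adjusted p = 0.058). It passed as a fall with the arrays centred (limma, adjusted p = 0.0275), but not with the 6 arrays alone (0.192).

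Duxf3, the symbol under which the array carries Dux, rose. Its signals were 1.37, 1.49 and 1.13 in the knockout, 1.31, 1.78 and 1.78 in the parental cells and 2.85, 3.44 and 4.33 in the mutant add-back, a rise of 2.21 (SE 0.28; adjusted p = 0.00156). The 3 add-back arrays lay above all arrays of the knockout and parental cells, but at a level low on the array. With the wild-type proteins the signals were 2.04, 2.33 and 2.34, below all mutant arrays. The mutant minus wild-type difference was 1.31 (95% interval 0.69 to 1.92) and did not pass the adjustment over all genes (adjusted p = 1). Tdpoz4 also had its mutant arrays above the wild-type ones, by 1.12 on average (95% interval 0.46 to 1.77), and did not pass either. In that comparison 0 of 22180 genes passed (0%) in limma, with 675 at an unadjusted p under 0.05. This is fewer than that threshold would give if no gene differed. A fit with the replicate number as a block gave more calls against the knockout, and was not run for mutant against wild type. The count of 0 therefore does not show that the add-backs were alike.

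**Figure D2:**
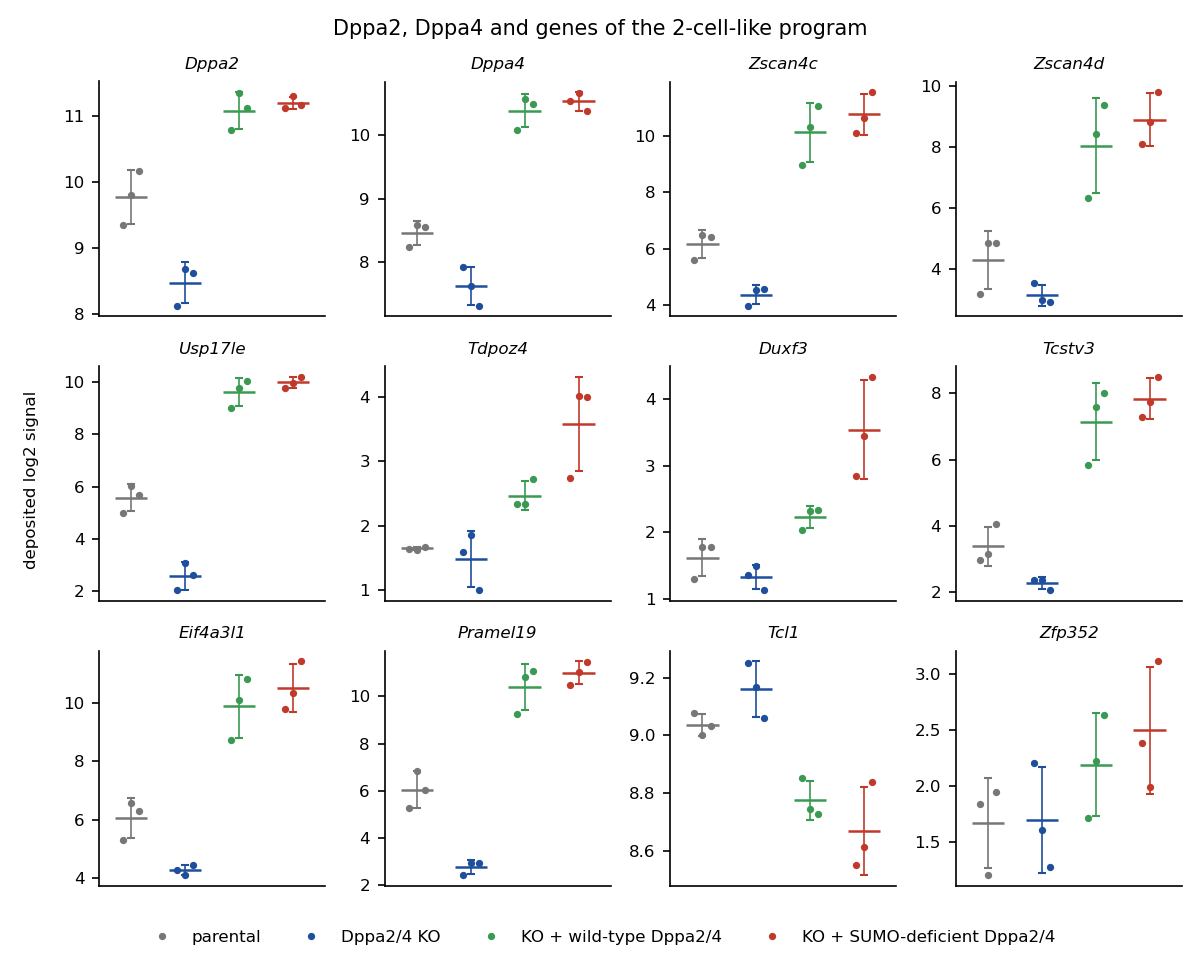
Deposited log2 signals of Dppa2, Dppa4 and 10 genes linked to the 2-cell embryo, 1 panel per gene with its own y axis. Points are the 3 arrays of a group in the order of their replicate numbers, horizontal lines the group means and bars 1 SD. In all panels but those of Tcl1 and Zfp352 the red points of the mutant add-back lie clear above the blue points of the knockout. In the Duxf3 panel, and narrowly in the Tdpoz4 panel, they also lie above the green points of the wild-type add-back.

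Of 60 measured genes on the list of the 2C-like program, 33 rose (55%, beside 1.12% of all genes) and 0 fell. A positive difference was seen in 51. With the arrays centred 32 rose and 1 fell. The list's median difference was 1.51, beside -0.01 for all genes. The mean signal over the list was 3.25, 3.30 and 3.31 in the knockout arrays, 3.75, 4.02 and 4.00 in the parental arrays and 5.57, 5.96 and 6.30 in the mutant add-back arrays. It was 4.99, 5.73 and 6.05 with the wild-type proteins. The mutant arrays thus lay above the knockout and parental arrays and overlapped those of the wild-type add-back. Further risers on the list were Sp110, a nuclear body protein, by 5.21 (SE 0.38; adjusted p = 8.17e-06), and Arg2, mitochondrial arginase, by 3.96 (SE 0.46; adjusted p = 0.000702). Nelfa, a subunit of the negative elongation factor complex, rose by 1.53 (SE 0.28; adjusted p = 0.0177) from a knockout level of 8.32, 8.27 and 8.61, though its adjusted p was 0.0899 without mutant add-back replicate 2. Sp110 had 2 other probe sets, which differed by 2.12 and 0.60 (adjusted p = 0.013 and 0.153 over all probe sets), so the size of its rise depended on the probe set.

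The 27 list genes that did not pass included known 2-cell markers. Zfp352, a zinc-finger gene of the 2-cell stage, had 2.20, 1.60 and 1.28 in the knockout and 1.99, 2.38 and 3.11 in the add-back (0.80, adjusted p = 0.324), and its arrays overlapped. Ubtfl1 differed by 1.38 (adjusted p = 0.0922), Abcb5 by 1.22 (adjusted p = 0.0754) and Gata2 by 0.71 (adjusted p = 0.419). The list was assembled with earlier results of these data known, so its count is not independent evidence of a direction.

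The replicates of the mutant add-back differed in the size of the rises of 2C-like genes. Of the 33 higher genes on the 2C-like list, 30 had their lowest add-back signal in replicate 1 and 29 their highest in replicate 3. Among the other 215 higher genes replicate 1 was lowest for 112 and replicate 3 highest for 80. The order was not particular to the mutant proteins: the mean over the 2C-like list was 4.99, 5.73 and 6.05 in wild-type add-back replicates 1, 2 and 3. Replicate 1 was also the lowest of the parental arrays (3.75, 4.02 and 4.00) and, by little, of the knockout arrays (3.25, 3.30 and 3.31). In the mutant add-back Dppa2 and Dppa4 signals were 11.12, 11.30 and 11.17, and 10.55, 10.67 and 10.39. What set the order of the replicates was not tested.

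Some of the higher genes, on the 2C-like list and off it, were next to one another on the chromosome. Gm11543, a predicted gene, had 1.14, 2.52 and 1.46 in the knockout and 10.17, 10.81 and 11.16 in the add-back, a rise of 9.01 (SE 0.49; adjusted p = 9.31e-07). It belongs to a run of 6 neighbouring genes in RefSeq order that all rose: Gm11545, Tmem92, Gm11546, AA623943, Gm11543 and Gm11544, by 1.87 to 9.01. A second run joined Gm1995, Gm2016, Gm2022, Gm2035 and Gm2046, and a further one Gm20767, AF067061, BC147527 and Tcstv3. Zscan4a to Zscan4d formed another run of 4. Of 247 higher genes that could be placed, 40 (16.2%) lay next to another higher gene, in 14 runs; of the 21747 other genes placed, 433 (1.99%) lay next to a higher gene. Several of these runs hold near-identical gene copies, whose probe sets can share RNA, so their members are not independent. The runs also held the pairs Dppa4 and Dppa2, and Hspa1b and Hspa1a. Of the 34 lower genes, 0 lay next to another lower gene.

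Germline genes moved in both directions. Of 59 measured, 5 rose (8.47%) and 3 fell (5.08%), beside 1.12% and 0.153% of all genes. The list's median difference was -0.04. Dazl, an RNA-binding protein of germ cells, had 5.31, 5.02 and 5.49 in the knockout and 6.91, 7.12 and 7.19 in the mutant add-back. It rose by 1.80 (SE 0.17; adjusted p = 8.65e-05) and its parental signals were 6.39, 6.70 and 6.78. Ddx4, the germ-cell RNA helicase VASA, had 4.25, 3.96 and 4.08 in the knockout and 5.77, 5.59 and 5.14 in the add-back, a rise of 1.40 (SE 0.16; adjusted p = 0.000645). The parental Ddx4 signals of 5.60, 5.55 and 5.38 overlapped those of the add-back, with a difference of -0.01 (adjusted p = 0.993). Mov10l1, a helicase needed for piRNA production, rose by 1.02 (SE 0.19; adjusted p = 0.0172) and Slc25a31, the germ-cell ADP/ATP carrier, by 0.94 (SE 0.12; adjusted p = 0.00187). The Mov10l1 arrays of the add-back overlapped those of the parental cells, and the Slc25a31 arrays, at 4.82, 4.88 and 4.84, lay above the parental 4.71, 4.74 and 4.58 by 0.17 on average (adjusted p = 0.67). Tdrd6, a Tudor protein of the chromatoid body, had 3.05, 2.62 and 2.78 in the knockout and 3.58, 3.89 and 3.65 in the add-back (0.89, SE 0.16; adjusted p = 0.0145).

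The 3 germline genes that fell were Ddx25, Zglp1 and Gtsf1l. Ddx25, a helicase of spermatids, had 5.77, 5.86 and 5.92 in the knockout and 4.84, 5.17 and 4.97 in the add-back, and fell by 0.86 (SE 0.14; adjusted p = 0.00946). Zglp1, a GATA-type factor of the germline, and Gtsf1l, related to a piRNA pathway factor, fell by 0.74 and 0.61 (adjusted p = 0.0456 for both). Dazl, Ddx4, Slc25a31 and Ddx25 kept their calls when any 1 of the 6 arrays was left out. Mov10l1 and Tdrd6 kept theirs in 3 of 6 such fits, with adjusted p of 0.0955 and 0.0898 without mutant add-back replicate 2. Zglp1 and Gtsf1l kept theirs in 0 of 6, with adjusted p up to 0.174 and 0.19. Taf7l, a testis form of a TFIID subunit, differed by 1.14 and Stra8, the retinoic acid-induced gene of meiotic entry, by -0.80, and neither passed (adjusted p = 0.0643 and 0.0653).

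**Figure D3:**
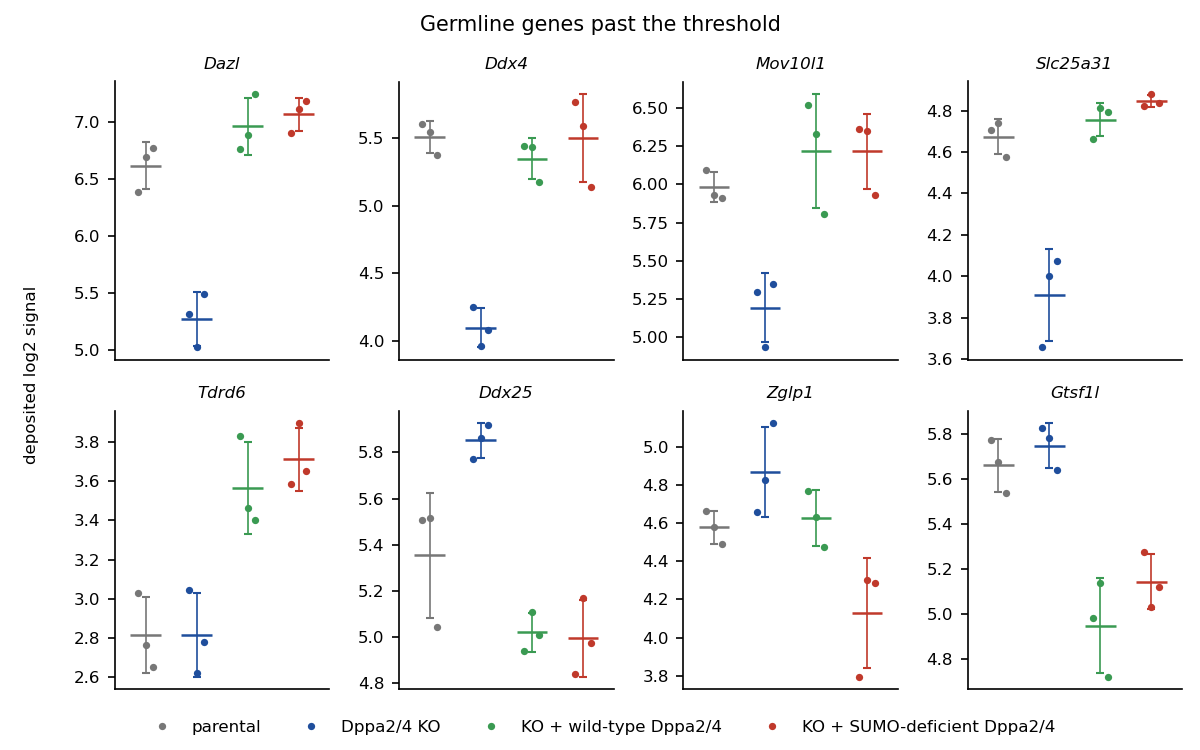
Deposited log2 signals of the 8 germline genes past the threshold, 1 panel per gene with its own y axis; points are the 3 arrays of a group, lines the means and bars 1 SD. For Dazl, Ddx4, Mov10l1 and Slc25a31 the knockout points are the lowest of the 4 groups, while for Ddx25 and Gtsf1l both add-backs lie below the knockout.

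Promoters of 3 of the risen germline genes are shown because they carry an E-box, CACGTG, the palindromic site of basic helix-loop-helix factors such as MYC and MAX. Capitals mark the E-box and, in Ddx4, also GGCGGGAA, an E2F-type sequence, each searched on both strands. The windows are again the 250 bases before the RefSeq start in GRCm38.p6: Ddx4 at chr13:112652311-112652560 (minus strand), Mov10l1 at chr15:88982744-88982993 (plus strand) and Slc25a31 at chr3:40708621-40708870 (plus strand).
Ddx4: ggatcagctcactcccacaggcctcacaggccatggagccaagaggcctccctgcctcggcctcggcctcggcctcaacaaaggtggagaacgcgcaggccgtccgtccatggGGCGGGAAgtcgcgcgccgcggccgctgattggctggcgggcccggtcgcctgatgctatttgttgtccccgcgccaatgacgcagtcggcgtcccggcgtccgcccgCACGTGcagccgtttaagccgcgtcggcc
Mov10l1: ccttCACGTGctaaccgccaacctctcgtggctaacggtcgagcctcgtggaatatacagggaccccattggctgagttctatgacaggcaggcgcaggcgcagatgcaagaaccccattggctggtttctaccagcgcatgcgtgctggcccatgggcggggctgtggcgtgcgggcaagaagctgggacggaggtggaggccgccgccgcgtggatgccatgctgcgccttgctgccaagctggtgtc
Slc25a31: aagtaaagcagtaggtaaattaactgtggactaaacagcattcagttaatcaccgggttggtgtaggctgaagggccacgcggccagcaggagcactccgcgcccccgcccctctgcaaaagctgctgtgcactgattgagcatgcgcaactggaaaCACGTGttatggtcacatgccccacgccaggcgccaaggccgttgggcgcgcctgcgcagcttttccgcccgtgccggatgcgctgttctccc

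The E-box was found in 3 of the 4 promoters matched to risen germline genes, in 22 of 64 promoters of the whole measured list (34.4%) and in 1664 of 20611 promoters of all measured genes (8.07%). It was found in 0 of the 20 promoters of higher 2C-like genes. The printed sequences also differ in CpG content: Ddx4 has 31 CpG in its 250 bases and Zscan4b has 1. Over the windows of 300 bases, the median ratio of observed to expected CpG was 0.81 for the 4 risen germline promoters, 0.15 for the 20 of higher 2C-like genes, 0.68 for the 203 of higher genes in no list or family and 0.57 for all promoters. For the 34 promoters of lower genes it was 0.53. The 4 germline promoters are too few to set apart from the rest of their list.

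Most higher genes belonged to none of the lists or families. Of the 248, 195 stood outside them, 166 with a symbol other than a predicted one. The median rise of the 166 was 0.93, and 72 rose by at least 2-fold. Of the 166, 50 kept the call in all 6 fits that left 1 array out, among them 8 of the 15 with the largest rises. Those described next were picked after the values were seen and were headed by Ccl3, an inflammatory chemokine. Ccl3 signals were 2.77, 2.66 and 2.13 in the knockout and 7.28, 8.14 and 8.48 in the add-back, a rise of 5.44 (SE 0.55; adjusted p = 0.000191). H2ac1, a histone H2A gene known from testis, had 4.55, 4.97 and 6.35 against 8.89, 8.87 and 9.36 (3.75, SE 0.51; adjusted p = 0.00219). Its parental signals of 7.11, 7.15 and 8.96 overlapped those of the add-back. Lgals4, a galactoside-binding lectin of the gut, rose by 3.08 (SE 0.35; adjusted p = 0.000547), Prkch, a protein kinase C, by 2.54 (SE 0.34; adjusted p = 0.0021) and Igfbp3, a carrier of insulin-like growth factors, by 2.44 (SE 0.28; adjusted p = 0.000646). These 5 are among those that kept their calls in all 6 fits. Genes of like size did not: Stox1, a winged-helix gene, rose by 3.01 (SE 0.57; adjusted p = 0.0191) but kept its call in 1 of 6 fits, with an adjusted p of 0.107 without mutant add-back replicate 2.

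The rises were concentrated among genes of middling parental level, a grouping that rests on arrays outside the comparison. With the genes split by their parental mean into 4 groups of 5545, 26, 97, 106 and 19 genes rose from the lowest to the highest group. The corresponding counts of genes that fell were 2, 4, 16 and 12. Of the 248 higher genes, 242 had an add-back mean above the parental mean, and 118 passed that test. Over all genes 145 were higher in the mutant add-back than in the parental cells (0.654%) and 75 lower (0.338%). Of the 34 lower genes, 33 lay below the parental mean and 7 passed that test. Comparisons with the knockout and with the parental cells share the add-back arrays, so these counts are not independent of one another.

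Genes of pluripotency changed little. Of 38 measured genes of naive pluripotency 2 rose (5.26%) and 1 fell (2.63%), beside 1.12% and 0.153% of all genes. Their median difference was -0.11, and of 24 genes of the formative and primed states 0 passed. Fbxo15, an F-box gene long used as an ES cell marker, had 8.60, 8.72 and 8.67 in the knockout and 9.76, 9.69 and 9.95 in the add-back, and rose by 1.13 (SE 0.12; adjusted p = 0.000283). Id3, an inhibitor of basic helix-loop-helix factors, rose by 0.97 (SE 0.16; adjusted p = 0.00981), with an adjusted p of 0.0622 without mutant add-back replicate 2. Prdm14, a repressor that guards naive pluripotency, had 6.43, 6.67 and 6.65 against 5.76, 5.73 and 6.15 and fell by 0.70 (SE 0.13; adjusted p = 0.0194), with 0.107 without mutant add-back replicate 2. Nanog differed by 0.06 (-0.02 with the arrays centred), Pou5f1 by -0.10 and Sox2 by -0.37 (adjusted p = 0.916, 0.783 and 0.135).

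The ES cell identity of the samples was checked on 12 marker genes, whose mean signal was 8.99, 9.04 and 9.04 in the knockout and 8.75, 8.86 and 8.93 in the mutant add-back. None of the 12 passed the test. Marker sets of fibroblasts (16 measured), primitive endoderm (10), trophectoderm (9), neuroectoderm (5) and mesoderm (4) also had 0 genes past the threshold. The mean signal of the fibroblast markers was 4.50 to 4.60 in the knockout and 4.63 to 4.65 in the add-back, that of the primitive endoderm markers 5.84 to 6.24 and 5.86 to 6.03. On the wider lists, 1 of 23 mesoderm genes rose (Snai1, an inducer of epithelial to mesenchymal transition, by 1.40), 1 of 23 trophectoderm genes rose (Ascl2, also imprinted, by 0.84) and 1 of 29 endoderm genes fell (Srgn, the proteoglycan core protein serglycin, by 0.73). Of 19 neuroectoderm and 24 fibroblast genes 0 passed. Over all genes 1.12% rose and 0.153% fell, and 1 call is too few to describe a list. Snai1 had an adjusted p of 0.097 without mutant add-back replicate 2, and Srgn kept its call in 0 of the 6 fits that left an array out.

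Of 32 immediate early and heat shock genes 3 rose (9.38%, beside 1.12% of all genes) and 0 fell; each fit that left 1 array out gave 2. The 3 were Hspa1b and Hspa1a, the inducible HSP70 chaperones, and Jun, a subunit of AP-1. Hspa1b had 5.33, 5.68 and 5.38 in the knockout, 6.56, 6.73 and 7.29 in the mutant add-back and 6.10, 6.26 and 5.68 in the wild-type add-back. It rose by 1.40 (SE 0.20; adjusted p = 0.00311), and all mutant arrays lay above all others. Jun rose by 1.25 (SE 0.22; adjusted p = 0.0122) and Hspa1a by 1.15 (SE 0.25; adjusted p = 0.0456). Hspa1a lost its call with the arrays centred (adjusted p = 0.0649) and Jun without mutant add-back replicate 2 (0.0777). Among 25 p53 targets Ddit4l, an inhibitor of mTOR signalling, rose by 1.33 (adjusted p = 0.0113; 0.0734 without mutant add-back replicate 2). Among 35 ATF4 and unfolded protein response genes Dnajb9, a chaperone of the endoplasmic reticulum, rose by 0.80 (adjusted p = 0.0208; 0.0571 with the arrays centred). Ddit4l and Dnajb9 were each the only call of their list (4% and 2.86%, beside 1.12% of all genes). Of 28 interferon and nucleic acid sensing genes and of 39 apoptosis and cell cycle genes 0 passed. Effects of transfection or sorting on these genes cannot be told apart from those of the add-back here.

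**Figure D4:**
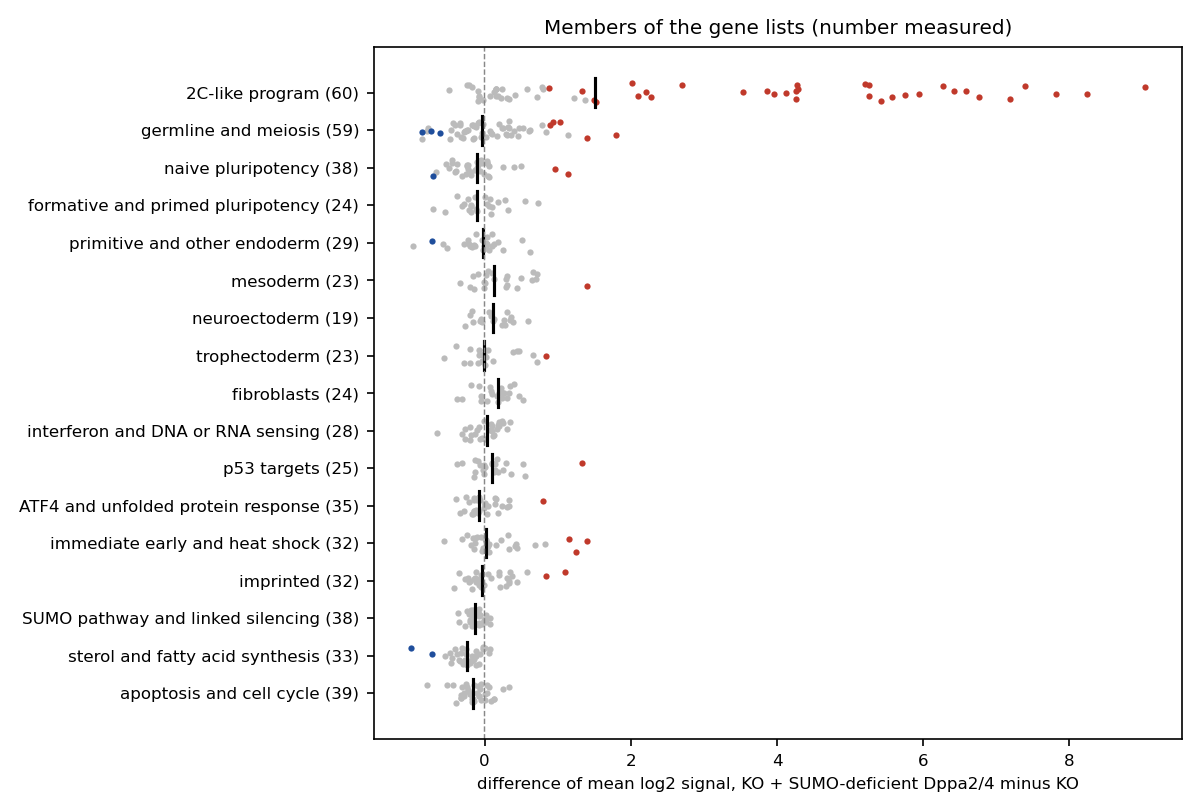
Each point is 1 measured gene of a list, placed by its difference of mean log2 signal, mutant add-back minus knockout; the number measured stands beside the list name. Red points rose and blue points fell at an adjusted p under 0.05, grey points did not pass, black bars are list medians and the dashed line is the median of all genes. Of the lists drawn, which leave out the Dppa family, the 2C-like list alone reaches beyond 2; its median is 1.51, and the other medians drawn lie between -0.24 and 0.19.

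None of 38 genes of the SUMO pathway and of silencing factors linked to it passed the test. Their median difference was -0.13, and 33 of 38 were negative. With the arrays scaled by quantiles the median was -0.06 and with centring -0.21, so the size depended on the scaling. Over all genes 48.7% of differences were positive, and several other lists also leaned downward. Sumo2 differed by -0.21 (adjusted p = 0.477) and Pias4, a SUMO ligase, by 0.02 (-0.06 with centring; adjusted p = 0.966). Among 32 imprinted genes Dlk1, a Notch-related ligand, rose by 1.10 (SE 0.21; adjusted p = 0.019; 0.0839 without knockout replicate 3), beside Ascl2. The 2 were 6.25% of the list, beside 1.12% of all genes.

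Lipid synthesis genes were the most downward of the lists. Of 33 measured genes of sterol and fatty acid synthesis 2 fell (6.06%, beside 0.153% of all genes) and 0 rose. Without mutant add-back replicate 2 the counts were 0 and 0. A negative difference was seen in 30, and 13 had add-back arrays that lay below all knockout arrays, beside 8.77% of all genes. The list's median difference was -0.24, -0.32 with centring and -0.17 with quantile scaling. Over all genes 48.7% of differences were positive. Other lists leaned downward too: 29 of 39 apoptosis and cell cycle genes and 27 of 38 naive pluripotency genes were negative. Of 24 fibroblast genes 18 were positive. Whether such leans follow the level of signal was not tested. Scd1, a stearoyl-CoA desaturase, had 7.53, 7.08 and 7.70 in the knockout and 6.57, 6.17 and 6.53 in the add-back, and fell by 1.01 (SE 0.17; adjusted p = 0.00863; 0.0564 without mutant add-back replicate 2). Its wild-type add-back signals, 6.52, 6.49 and 6.42, lay within the range of the mutant arrays. Scd3 fell by 0.71 (SE 0.14; adjusted p = 0.0286; 0.143 without mutant add-back replicate 2). Mbtps2, the site-2 protease that releases active SREBP, fell by 0.64 (SE 0.14; adjusted p = 0.0456) and kept its call in 0 of 6 fits that left an array out. Sqle, squalene epoxidase, differed by -0.55 and Msmo1, a sterol oxidase, by -0.48 (adjusted p = 0.0922 and 0.106).

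The other falls were small and spread over many functions. Of the 34 lower genes, 27 belonged to no list or family. Accsl, named for its likeness to an ACC synthase, had 5.18, 5.41 and 5.12 in the knockout, 4.75, 4.59 and 4.68 with the wild-type proteins and 3.94, 4.30 and 4.18 with the mutant. It fell by 1.10 (SE 0.13; adjusted p = 0.000646), the smallest p among the falls. The mutant minus wild-type difference was -0.53 (95% interval -0.80 to -0.26; adjusted p = 1). Dtna, the cytoskeletal protein dystrobrevin alpha, fell by 0.66 (SE 0.11; adjusted p = 0.00695) and Zfp874b, a zinc finger gene, by 0.85 (SE 0.14; adjusted p = 0.00713). Accsl, Ddx25, Dtna, Zfp874b and Snora74a were the 5 falls kept when any 1 of the 6 arrays was left out. Phf19, a Polycomb-associated protein, fell by 0.69 (SE 0.13; adjusted p = 0.0208; 0.0949 without knockout replicate 2).

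Small noncoding RNAs headed the falls by size. Snora74a, a guide for pseudouridylation, had 6.78, 7.24 and 7.31 in the knockout and 5.24, 5.65 and 5.85 in the mutant add-back, and fell by 1.53 (SE 0.25; adjusted p = 0.00846). Snora62 fell by 1.15 (SE 0.23; adjusted p = 0.0309; 0.151 without mutant add-back replicate 2). The wild-type add-back signals, 5.29, 6.15 and 5.13 for Snora74a and 7.27, 7.46 and 7.86 for Snora62, overlapped the mutant ones. Of 73 small nucleolar RNA genes measured these 2 passed (2.74%, while 0.153% of all genes fell). The group was formed after the values were seen, so its share is not independent evidence. A negative difference was seen in 54, with a median of -0.16. In both genes all arrays of the transfected and sorted groups lay below all parental and knockout arrays.

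Among 483 microRNA genes 1 rose and 1 fell (0.207% each, beside 1.12% and 0.153% of all genes). This group too was formed after the values were seen. Mir290a, of the ES cell-specific miR-290 cluster, had 8.63, 8.99 and 8.70 in the knockout and 9.73, 9.60 and 9.67 in the add-back, and rose by 0.89 (SE 0.16; adjusted p = 0.0134; 0.0629 without knockout replicate 1). Mir18b, of the miR-106a cluster, fell by 1.28 (SE 0.26; adjusted p = 0.0309; 0.129 without knockout replicate 2). The probe sets carry the genes' symbols and do not separate mature from precursor RNA. One arm of each is printed to show their seeds (bases 2 to 8, in capitals), which differ; the sequences are from RefSeq.
miR-290a-3p: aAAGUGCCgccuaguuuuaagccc
miR-18b-5p: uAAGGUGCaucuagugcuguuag

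**Figure D5:**
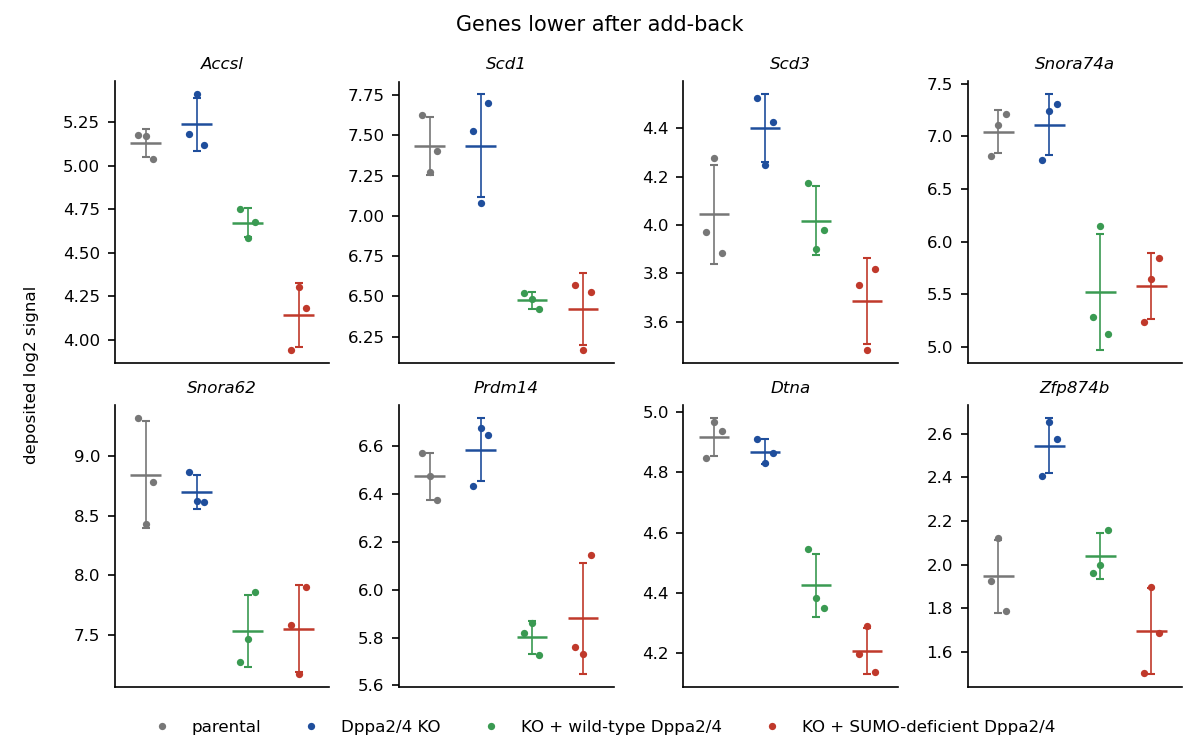
Deposited log2 signals of 8 of the 34 lower genes, 1 panel per gene with its own y axis; points are the 3 arrays of a group, lines the means and bars 1 SD. In every panel the mutant add-back lies below the knockout; for Scd1, Snora74a, Snora62 and Prdm14 the wild-type and mutant add-backs overlap, while for Accsl, Scd3, Dtna and Zfp874b the mutant arrays lie below the wild-type arrays.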

How the data were processed

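The authors deposited log2 signals, already normalized, with 1 value for each probe set on each array; Transcriptome Analysis Console is the tool named, per the submitters' processing notes, with no version. Background correction, summarization and genome build are not stated in the sources used here; detection calls were not used. Per the labels' protocols, biotin-labelled cDNA was made from total RNA with an Affymetrix whole-transcript kit. Of 41345 probe sets, 23521 had 1 gene symbol; the one with the highest mean over the 12 arrays stood for a gene, which left 22180 genes. Probe sets with several symbols (1814) or none (16010) were tested apart. Symbols were checked by Entrez identifier against RefSeq (GRCm38.p6; 23328 matched, 0 changed).

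Array medians were 3.73 to 3.88, the 15 pairs of the 6 arrays correlated at 0.976 to 0.992, and 0 of 66 pairs of arrays were identical. The number of arrays limits the precision: the median 95% half-width of a difference was 0.344.

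The test was limma's moderated one (lmFit, then eBayes; limma 3.58.1 under R 4.3.3) with 1 mean per group (all 12 arrays sharing the spread), two-sided, with Benjamini-Hochberg adjustment over 22180 genes, a threshold of 0.05 and no fold limit. The method was tested on simulated data with 200 changed genes. Tables, promoter searches and figures used matplotlib 3.10.9 and pandas 2.3.3 in Python 3.11.15, and local alignments Biopython 1.88 (match 2, mismatch -3, gap -5 and -2). The genes, 18 lists and 13 families were chosen with earlier results of these data known. Genes were named by rule: the 25 largest rises and falls and 10 smallest p-values past the threshold, list members past the threshold and up to 4 of the rest of a list, and the largest predicted genes; others named were chosen after their values were seen. Alternatives were quantile scaling, median centring, a filter on low genes, trend and robust variances, the 6 arrays alone, averaging the probe sets of a gene, array weights, a replicate block, and each array left out.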

Additional observations from a re-analysis of the deposited data

Results flagged for a closer look

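Signals also rose in probe sets that stand for no single gene. In a fit over all 41345 probe sets, 72 of the 16010 with no gene symbol were higher in the mutant add-back than in the knockout and 13 were lower. Of the 1814 with several symbols, 71 were higher and 0 lower, with a largest rise of 8.41. In the same fit, 190 of the 23521 with a single gene symbol were higher and 16 were lower. The share called higher was thus smaller with no symbol, and larger with several symbols, than with a single symbol. The probe sets with no symbol or several symbols are outside the comparison of genes and are not named.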

How the results depend on the processing

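The rises of Dppa2 and Dppa4 passed under every alternative run. The count of higher genes was 248, and it lay between 194 and 270 under quantile scaling, median centring, the filter on low genes, trend and robust variances, the 6 arrays alone and the mean of probe sets. It was 480 with a replicate block and 432 with array weights, both chosen as alternatives to the unblocked, unweighted fit. The count of lower genes was 34, and became 72 with median centring, 52 without the genes under the 25th percentile of mean signal, 12 with the 6 arrays alone, 236 with the replicate block and 96 with array weights. Leaving out 1 array gave 109 to 192 higher and 10 to 19 lower genes. Of the 248, 103 kept the call in all 6 such fits and 21 in 0; of the 34, 5 and 13 did. The replicate numbers were not taken as pairs, since deviations of same-numbered arrays correlated at 0.31, 0.08 and 0.36, not all over 0.1; each array correlated best with its own number, a hint from the data and not the design. No named gene past the threshold changed sign under the scalings. With median centring the differences of Nanog and Pias4, which did not pass, went from 0.06 and 0.02 to -0.02 and -0.06, and the list medians of interferon and sensing genes and of immediate early and heat shock genes from 0.04 and 0.02 to -0.04 and -0.06. With 3 arrays a group and no detection calls, signals at the low end of the array cannot be set apart from background: 41 of the 248 higher genes had all knockout arrays below 3.0. Of 16 called genes with more than 1 probe set, 14 had all others in the same direction. This count is of direction alone, and the sizes often differed. The other probe set of Cd24a differed by 1.29 beside 1.31 (limma, adjusted p = 0.000988 over all probe sets). Those of Cryaa and Arhgef26 differed by 0.02 beside 1.41 and by 0.39 beside 2.92, and did not pass (adjusted p = 0.981 and 0.465).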

Other observations

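Developmental transcription factors were looked at after their values were seen. Over 11 families with 169 measured genes (among them Hox, Tbx, Fox, Sox, Irx, Pou and Snai genes), 11 rose (6.51%, beside 1.12% of all genes) and 0 fell. Without knockout replicate 3, and without mutant add-back replicate 2, 0 of them rose, and the other fits that left 1 array out gave 4 to 6, so the count rests on those arrays. The median difference was 0.12, and 0.04 with the arrays centred. The largest were Snai1 at 1.40, Tbx1, a T-box factor of pharyngeal development, at 1.22 and Irx4, a factor of the ventricular heart, at 1.19. Irx4 signals were 3.26, 3.64 and 3.36 in the knockout and 4.64, 4.84 and 4.33 in the mutant add-back. Tbx1 had 4.52, 4.60 and 4.15 against 5.68, 6.10 and 5.14. The groups did not overlap in either gene, but both lost the call when 1 array was left out (adjusted p up to 0.0811 for Irx4 and 0.0909 for Tbx1).

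A few single genes outside the lists, likewise picked after their values were seen, are given as values. Ret, the receptor tyrosine kinase for GDNF-family ligands, had 4.23, 3.78 and 3.81 in the knockout and 6.04, 6.05 and 5.45 in the add-back (1.91, SE 0.21; limma, adjusted p = 0.00047). Rxra, the retinoid X receptor alpha, had 5.57, 5.46 and 5.48 against 6.61, 7.24 and 7.22 (1.52, SE 0.19; adjusted p = 0.00119). Flt4, a receptor for VEGF-C, rose by 1.19 (adjusted p = 0.0071). Dmrtb1, a DM-domain factor of spermatogenesis that was on no list, had 3.88, 3.69 and 3.72 against 5.19, 5.02 and 4.83 (1.25, SE 0.13; adjusted p = 0.00025). These 4 kept their calls when any 1 of the 6 arrays was left out, and their groups did not overlap.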
